A study of Rattus norvegicus with 6 samples.

Results

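The 9 claudins that are best known from the nephron (Cldn1, Cldn2, Cldn3, Cldn4, Cldn7, Cldn8, Cldn10, Cldn16 and Cldn19) were followed in renal cortex from male rats of the Sprague-Dawley strain after tris(2-chloroethyl)phosphate (TCEP), a chlorinated organophosphate flame retardant. The genes were taken by name, and a probe was counted for a gene when the accession it was designed on belongs to that gene. This gave 18 probes of 61657 non-control probes, for 9 of 15284 genes that could be named on the array. Cldn7 and Cldn10 had 1 probe each and the other 7 claudins had several. The rats were bought at 5 weeks of age and dosed for 4 weeks, 3 with corn oil (vehicle) and 3 with TCEP at 400 mg/kg/day. No genotype or further agent is given in the labels, and each rat gave 1 single-colour Agilent array. All 18 probes were well above background on all 6 arrays, so no claudin here entered through a filter on low values.

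Claudins are small membrane proteins of the tight junction, the seal between neighbouring epithelial cells. They set which ions pass between the cells: some form pores for cations, anions or water, and others close the gap. Along the nephron the set of claudins changes from segment to segment, from the leaky proximal tubule to the tight collecting duct, and the cortex holds Bowman's capsule, proximal tubule, thick ascending limb, distal tubule and cortical collecting duct together. In such bulk tissue, fewer cells of a type and less RNA per cell cannot be told apart.

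Levels below are log2 of the processed signal minus the log2 75th percentile of the same array. They can be followed from array to array for 1 probe, but a level is not compared between probes. A difference is the TCEP mean less the vehicle mean of these log2 levels, and the SD of 3 arrays follows each ±. The 3 vehicle arrays lay on one slide and the 3 TCEP arrays on another, each with its own scan time, so slide and group cannot be told apart in any difference given here. Depending on the array, 67.2% to 69.3% of non-control probes exceeded background clearly. At a Benjamini-Hochberg adjusted p under 0.05 in limma, 0 of 11804 genes (0%) and 0 of 41040 probes (0%) differed between the groups. An unadjusted p under 0.05 was reached by 983 genes (8.33%) and 3416 probes (8.32%).

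Across the 9 claudins, the profile of TCEP-treated cortex lay close to that of vehicle. None of the 9 passed the adjusted threshold, 4 had higher and 5 lower means after TCEP, and the median difference was -0.01, beside 0.01 over all genes tested. Only Cldn4 reached an unadjusted p under 0.05. Cldn4 (lower) and Cldn10 (higher) were the 2 claudins whose TCEP and vehicle arrays did not overlap, which is to be read against 15.6% of all genes without overlap (6.97% lower and 8.63% higher after TCEP). By probe, 10 of 18 were higher and 8 lower, and 3 of 18 had no overlap, against 15.3% of all probes. On the brightest probe, the 95% confidence interval of the difference lay within 1.5-fold in either direction for 8 of the 9 claudins. The exception was Cldn3. Intervals of further probes went beyond 1.5-fold for Cldn1 (A_44_P285463, up to 0.72 in log2) and Cldn19 (A_64_P138420, up to 0.67).

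**Figure D1:**
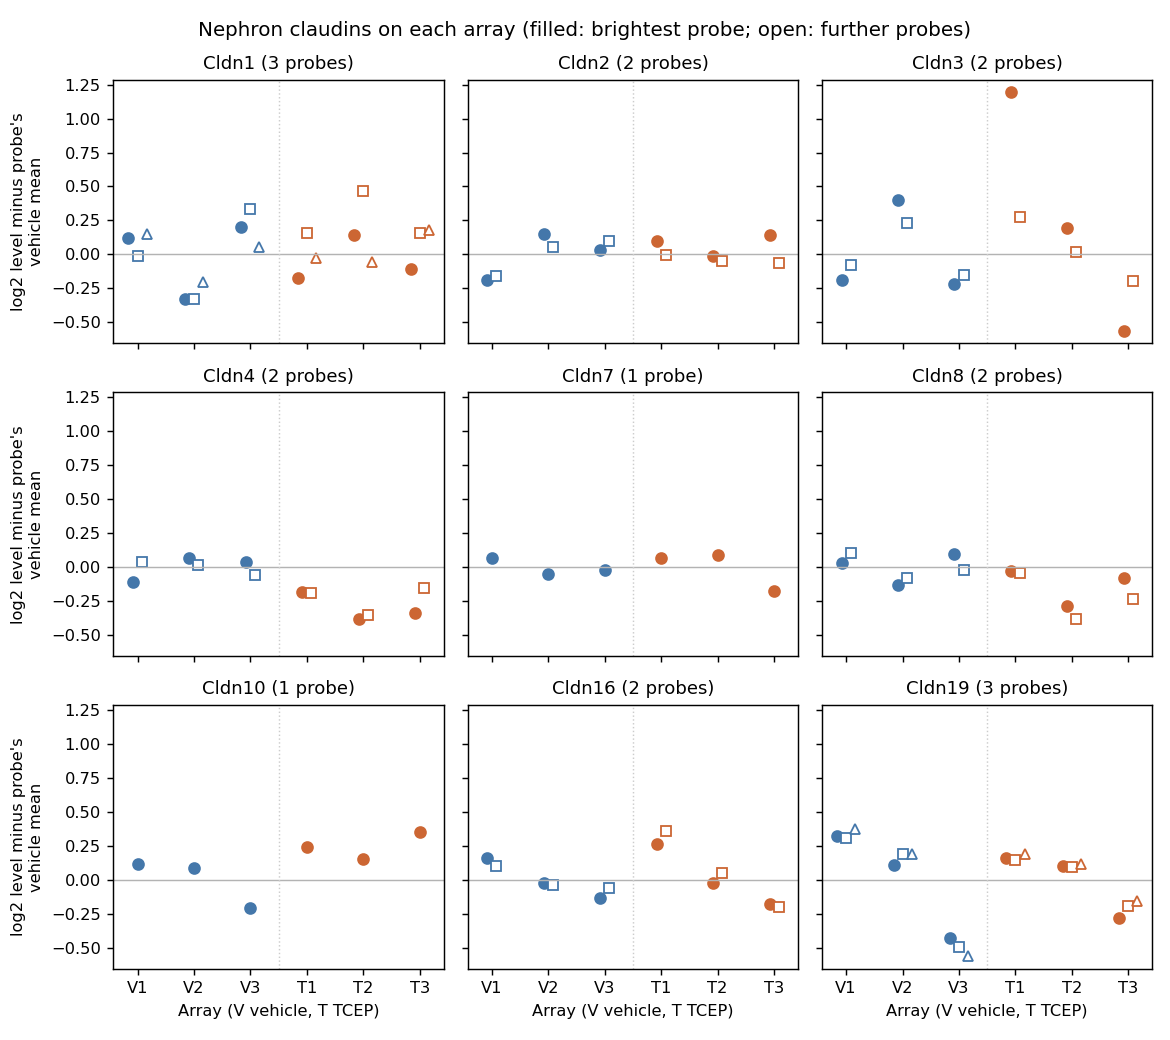
Level of every claudin probe on each array, as log2 level minus the mean of the same probe on the vehicle arrays (y axis), for vehicle arrays V1 to V3 in blue and TCEP arrays T1 to T3 in orange; filled points are the brightest probe of a gene and open points its further probes. Both Cldn4 probes lie below the vehicle arrays on all 3 TCEP arrays, Cldn10 lies above them on all 3, and Cldn3 spreads most, with TCEP replicate 1 at the top.

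The RefSeq table of promoters, on build GRCr8, held 7 of the 9 claudins, all but Cldn2 and Cldn4. Windows of 300 bases, from 250 before to 50 after the annotated start, are shown for Cldn10, whose arrays did not overlap between groups, and for Cldn16 and Cldn19, which varied together over the arrays. These are coordinates of that table, not of the array design. Capitals mark matches, on either strand, to the GC box GGGCGG (in 34.9% of 27457 promoters of this length), to the core GTTAAT of the hepatocyte nuclear factor HNF1 (7.4%), to the Grainyhead-like site AACCNGTT (2.0%), to the TATA box TATAAA (14.3%) or to the E-box CAGGTG (18.7%).
Cldn10, GRCr8 chr15:102269608-102269907, plus strand: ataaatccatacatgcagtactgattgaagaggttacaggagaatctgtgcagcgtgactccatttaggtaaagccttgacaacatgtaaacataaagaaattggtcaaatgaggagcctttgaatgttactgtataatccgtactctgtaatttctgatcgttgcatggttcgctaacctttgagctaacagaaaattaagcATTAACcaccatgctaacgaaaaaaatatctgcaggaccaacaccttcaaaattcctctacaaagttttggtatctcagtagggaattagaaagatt
Cldn16, GRCr8 chr11:87814347-87814646, minus strand: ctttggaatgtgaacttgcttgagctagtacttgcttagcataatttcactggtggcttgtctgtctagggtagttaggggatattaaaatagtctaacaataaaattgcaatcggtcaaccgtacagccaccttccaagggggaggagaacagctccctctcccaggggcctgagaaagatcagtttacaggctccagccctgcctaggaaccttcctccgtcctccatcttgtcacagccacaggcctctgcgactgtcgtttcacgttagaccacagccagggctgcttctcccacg
Cldn19, GRCr8 chr5:138148325-138148624, plus strand: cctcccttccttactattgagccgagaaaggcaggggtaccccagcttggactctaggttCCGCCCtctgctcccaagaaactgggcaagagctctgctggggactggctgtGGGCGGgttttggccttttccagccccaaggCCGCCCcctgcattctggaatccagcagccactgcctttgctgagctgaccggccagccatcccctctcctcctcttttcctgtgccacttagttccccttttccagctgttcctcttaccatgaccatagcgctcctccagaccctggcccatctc

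The Cldn10 window held 1 HNF1 core and 37.0% G and C, against a median of 52.3% over all promoters. The Cldn19 window held 3 GC boxes and 59.7% G and C. The Cldn16 window held none of the 5 motifs and 51.0% G and C. Whether these letters bear on the levels of any claudin was not tested. Cldn10 is known to be made from alternative starts, and the table gives 1 window. A match describes the sequence and does not show binding.

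Cldn2 forms the cation and water pore of the proximal tubule, the pathway of much paracellular sodium. Its brightest probe (A_44_P838355) stood at 2.84, 3.18 and 3.06 on vehicle arrays and at 3.12, 3.01 and 3.17 on TCEP arrays. The groups overlapped, with all TCEP arrays inside the vehicle range. The difference was 0.07 (SE 0.10, 95% interval -0.18 to 0.33, adjusted p = 0.871 with limma), an interval from 0.881-fold to 1.26-fold. The further probe (A_44_P433905) was at 0.10 ± 0.14 and 0.06 ± 0.03 and differed by -0.04 (SE 0.09). Proximal tubule markers stood level beside it, with 5 of 10 tested higher and 5 lower and a median of 0.01. Among them the lactate transporter gene Slc5a12 differed by -0.28 (SE 0.09) and Aqp1, which encodes a water channel, by 0.21 (SE 0.08).

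Cldn10 encodes an anion-selective form in the proximal tubule and a cation-selective form in the thick ascending limb. Its 1 probe (A_44_P351723) is not tied to either form here. It stood at 2.64, 2.61 and 2.32 in vehicle and at 2.76, 2.67 and 2.88 in TCEP-treated cortex. All 3 TCEP arrays lay above all 3 vehicle arrays, with the lowest TCEP array close to the highest vehicle array. The means were 2.52 ± 0.18 and 2.77 ± 0.10, a difference of 0.25 (SE 0.11, 95% interval -0.02 to 0.52, unadjusted p = 0.0670, adjusted p = 0.625 with limma). Vehicle replicate 3 was the low array of its group, and without it the difference was 0.15. Cldn10 had the second largest shift of the 9 nephron claudins relative to its error, and the threshold over all genes was not reached.

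Cldn16 and Cldn19 together form the channel of the thick ascending limb through which calcium and magnesium are reabsorbed between cells, and loss of either causes renal wasting of both ions in people. The brightest Cldn16 probe (A_64_P101978) was at -0.29, -0.47 and -0.58 in vehicle and at -0.18, -0.47 and -0.62 after TCEP. The groups lay over each other, and the difference was 0.02 (SE 0.14, 95% interval -0.32 to 0.36, adjusted p = 0.976 with limma). The further Cldn16 probe (A_42_P665084) differed by 0.07 (SE 0.15).

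The brightest Cldn19 probe (A_64_P138415) was at 2.97, 2.76 and 2.23 in vehicle and at 2.81, 2.76 and 2.37 after TCEP. The spread within each group exceeded the difference of -0.01 (SE 0.22, 95% interval -0.55 to 0.54, adjusted p = 0.996 with limma). The other Cldn19 probes (A_44_P1047578 and A_64_P138420) differed by 0.02 (SE 0.23) and 0.05 (SE 0.26). Vehicle replicate 3 was the lowest of the 6 arrays on all 3 Cldn19 probes, and TCEP replicate 3 the next lowest. Without vehicle replicate 3 the difference of the brightest probe was -0.22.

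Cldn16 and Cldn19 followed each other over the arrays, with a Pearson r of 0.80, the highest of the 36 pairs of claudins, and also 0.80 for deviations from the group means. The 6 arrays are the only points and each array contributes both values, so r is given as a description. Cldn3 and Cldn7, given below for distal segments, came near this value, with an r of 0.75 and 0.72 with Cldn16. Cldn10, partly of the segment of Cldn16 and Cldn19, had an r of 0.21 with Cldn16 and 0.33 with Cldn19. Thick ascending limb markers beside them were lower in 7 of 8 tested genes (median -0.13), among them the potassium channel gene Kcnj1 at -0.32 (SE 0.09, adjusted p = 0.535 with limma) and the prostaglandin receptor gene Ptger3 at -0.15 (SE 0.06, adjusted p = 0.602 with limma). Their summed linear level ran from 667 to 799 in vehicle and from 676 to 828 in TCEP arrays, with overlap, and its part in the claudin values was not tested.

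**Figure D2:**
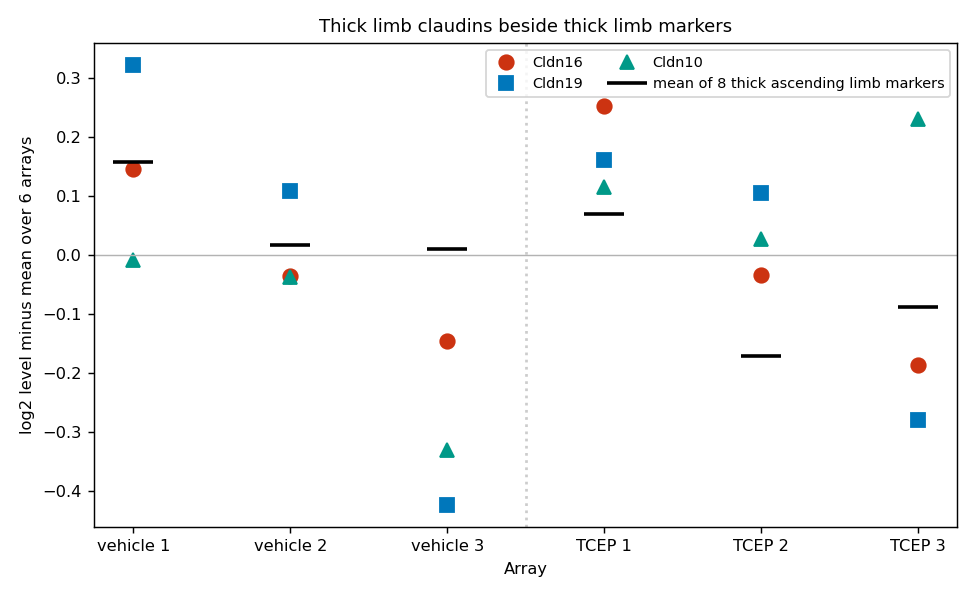
Brightest probes of Cldn16, Cldn19 and Cldn10 on each array, as log2 level minus the mean of the same probe over the 6 arrays (y axis), with the mean of 8 thick ascending limb markers as a black bar. Cldn16 and Cldn19 are high on vehicle replicate 1 and TCEP replicate 1 and low on replicate 3 of both groups, while Cldn10 is highest on TCEP replicate 3.

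Cldn4 is expressed in the collecting duct, where it works with Cldn8 in a barrier that blocks sodium and lets chloride pass. Its brightest probe (A_44_P975437) stood at 0.52, 0.70 and 0.67 in vehicle and at 0.45, 0.25 and 0.30 after TCEP. All TCEP arrays lay below all vehicle arrays, with TCEP replicate 1 and vehicle replicate 1 the nearest to each other; without scaling between arrays, or with spike-in centring, the Cldn4 groups overlapped, whereas those of Cldn10 did not. The means were 0.63 ± 0.10 and 0.33 ± 0.11, a difference of -0.30 (SE 0.09, 95% interval -0.51 to -0.09), or 0.812 of the vehicle level. The unadjusted p was 0.0138 and the adjusted p = 0.535 with limma, so Cldn4 was not called.

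The further Cldn4 probe (A_44_P299550) stood at -1.43, -1.45 and -1.52 in vehicle and at -1.66, -1.82 and -1.62 after TCEP. It again had no overlap, and differed by -0.23 (SE 0.08, unadjusted p = 0.0269, adjusted p = 0.573 with limma over all probes). Both probes read the same RNA samples, so the second is a check on the probe and not on the animals. Leaving out 1 array at a time kept the brightest probe between -0.36 and -0.26.

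Cldn8, the partner of Cldn4 that is also needed to bring Cldn4 to the junction, had its brightest probe (A_44_P438904) at -0.04, -0.20 and 0.03 in vehicle and at -0.10, -0.36 and -0.16 after TCEP. The groups overlapped, and the difference was -0.13 (SE 0.10, 95% interval -0.38 to 0.11, adjusted p = 0.754 with limma). On the further probe (A_64_P076322) vehicle arrays lay between -1.03 and -0.85 and TCEP arrays between -1.33 and -0.99, a difference of -0.22 (SE 0.11). TCEP replicate 2 was the lowest array on all 4 probes of Cldn4 and Cldn8.

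Cldn7, a barrier claudin of the distal nephron and collecting duct, stood level on its 1 probe (A_44_P1010902). It was at -0.42, -0.54 and -0.50 in vehicle and at -0.42, -0.40 and -0.66 after TCEP, so that the TCEP arrays spanned the vehicle arrays. The difference was -0.01 (SE 0.09, 95% interval -0.24 to 0.22, adjusted p = 0.987 with limma).

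Most markers of distal tubule and collecting duct cells, which carry Cldn4, Cldn7 and Cldn8, had lower means after TCEP, beside 5612 of all 11804 genes tested. For principal cells, 8 of 8 tested markers had lower means (median -0.23), and 0 of 8 had groups that did not overlap, beside 6.97% of all genes without overlap and lower. Avpr2, the vasopressin receptor gene, differed by -0.33 (SE 0.13) and Gata3, a transcription factor gene, by -0.26 (SE 0.13). Their summed linear level ran from 132 to 216 in vehicle and from 152 to 163 in TCEP arrays. For intercalated cells it was 9 of 10 (median -0.29), with summed levels of 154 to 170 in vehicle and 122 to 142 after TCEP that did not overlap, and 7 of 10 markers were lower without overlap. The proton pump genes Atp6v1c2 and Atp6v1b1 differed by -0.51 (SE 0.10) and -0.29 (SE 0.07). Among genes of the distal convoluted and connecting tubule it was 5 of 5 (median -0.34), with summed levels of 127 to 168 and 123 to 148, and 2 of 5 without overlap. These were the calcium channel gene Trpv5 at -0.42 (SE 0.12) and the calcium-binding protein gene Calb1 at -0.58 (SE 0.21). None of these markers passed the adjusted threshold, and their part in the Cldn4 and Cldn8 values was not tested.

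Cldn3, a sealing claudin of the distal segments that lies next to Cldn4 in the genome, was the most variable of the 9. Its brightest probe (A_64_P076277) stood at 1.27, 1.86 and 1.24 in vehicle and at 2.65, 1.65 and 0.89 after TCEP. TCEP replicate 1 was the highest and TCEP replicate 3 the lowest of all 6 arrays. The difference of 0.27 (SE 0.45, adjusted p = 0.891 with limma) had an interval from 0.559-fold to 2.62-fold and turned to -0.19 without TCEP replicate 1. The further probe (A_44_P376862) put the arrays in the same order at the extremes, with 0.50 on TCEP replicate 1 and 0.03 on TCEP replicate 3, and had an r of 0.93 with the first, but its difference was 0.03 (SE 0.16).

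Cldn1 marks the parietal cells of Bowman's capsule and is a barrier claudin of many epithelia. Its brightest probe (A_42_P669779) stood at 0.15, -0.30 and 0.23 in vehicle and at -0.14, 0.17 and -0.08 after TCEP. All TCEP arrays lay inside the vehicle range, and the difference was -0.04 (SE 0.17, 95% interval -0.45 to 0.36, adjusted p = 0.956 with limma). The other probes (A_44_P285463 and A_43_P12641) differed by 0.26 (SE 0.19) and 0.03 (SE 0.12). Vehicle replicate 2 was the lowest array on all 3 Cldn1 probes. The r between Cldn1 probes was 0.34 to 0.74, while the 3 Cldn19 probes had an r of 0.97 or more among themselves, so the Cldn1 values depend more on which probe is read.

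**Figure D3:**
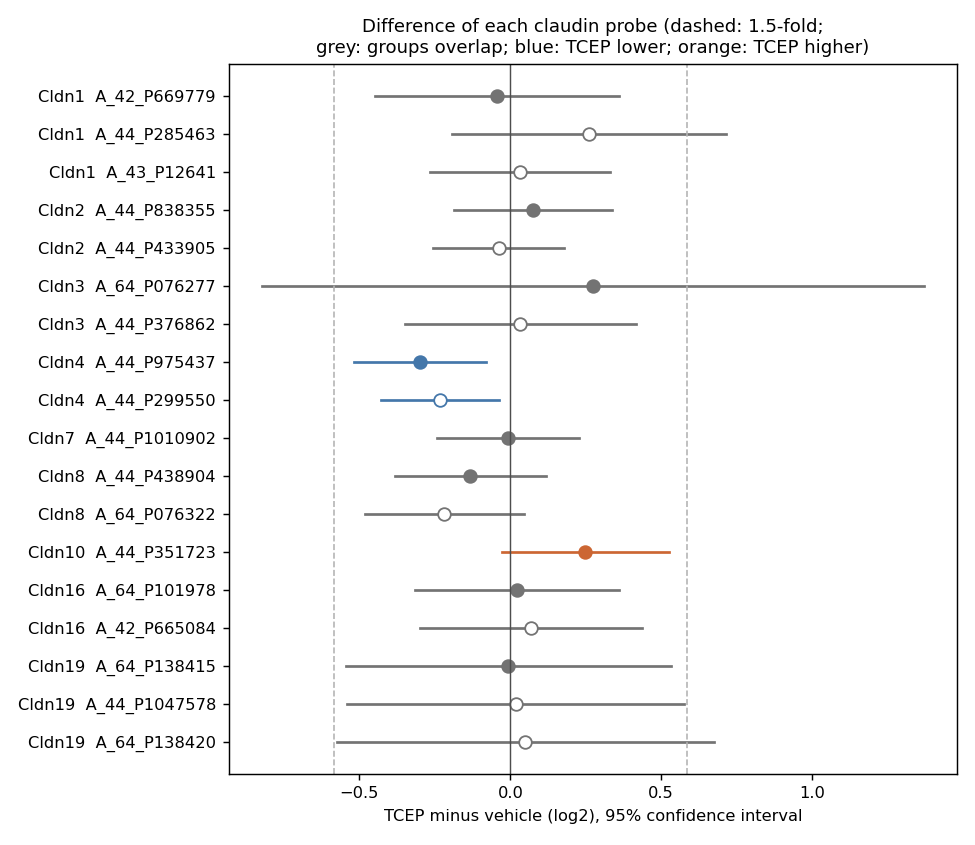
TCEP minus vehicle on the log2 scale (x axis) with its 95% confidence interval for each of the 18 claudin probes, fitted over all 41040 probes; filled points are the brightest probe of a gene dashed lines mark 1.5-fold, and blue and orange mark probes whose groups do not overlap. The intervals of both Cldn4 probes lie below 0, that of Cldn10 reaches just below 0, and that of the brightest Cldn3 probe is the widest.

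Of 18 other claudins and claudin-domain genes listed, 11 were tested, 5 were not well above background in either whole group (Cldn11, Cldn15, Cldn17, Cldn20 and Cldn34a) and 2 (Cldn25 and Cldn34b) are not analysed here. Of the 11, 5 were higher, among them Cldn14, which was tested only through the TCEP group, and 6 lower (median -0.09), and none passed the adjusted threshold. Cldn9, described in the immature nephron, was at 1.92, 1.55 and 1.62 in vehicle and at 1.25, 1.53 and 1.20 after TCEP. The groups did not overlap, though by a small margin at TCEP replicate 2, and the difference was -0.37 (SE 0.14, unadjusted p = 0.0370, adjusted p = 0.577 with limma). A further Cldn9 probe differed by -0.90 (SE 0.30, adjusted p = 0.572 with limma over all probes), also without overlap. Cldn6, the neighbouring gene, was dim, with processed signals of 26.2 to 81.6, and differed by -0.58 (SE 0.41). Vehicle arrays lay between -5.24 and -3.57, the latter on replicate 2, and TCEP arrays between -5.15 and -4.98, a range inside that of vehicle. A further Cldn6 probe, highest on vehicle replicate 3 (-2.79), exceeded background clearly on 2 vehicle and 0 TCEP arrays and was not tested.

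Cldn14 blocks the Cldn16 and Cldn19 channel. Its brightest probe stood at -0.74 on TCEP replicate 1 and between -5.73 and -3.32 on the other 5 arrays, and the groups overlapped. It was well above background on 3 TCEP arrays but on 2 of 3 vehicle arrays, so it was tested only through the TCEP group and its difference is not given. TCEP replicate 1 was also the highest array for Cldn3. A further Cldn14 probe was at -2.84 on that array and between -4.19 and -3.46 on the others. Cldn22 and Cldn24, neighbouring genes, shared a high array in TCEP replicate 2, at -2.02 and -1.79, and differed by 0.06 (SE 0.29) and 0.14 (SE 0.33).

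The endothelial claudin Cldn5 differed by -0.13 (SE 0.12), Cldn12 by 0.03 (SE 0.10), Cldn18 by -0.09 (SE 0.12) and Cldn23 by 0.01 (SE 0.06). A further Cldn23 probe differed by 0.88 (SE 0.74), with overlap and with TCEP replicate 1 the highest array at -1.66. Cldnd1, which carries a claudin-like domain, was lower on all TCEP arrays by -0.14 (SE 0.07, adjusted p = 0.643 with limma), and Cldnd2 differed by -0.12 (SE 0.13).

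The partners of claudins at the junction were level as a list. Of 30 listed, 24 were tested, 11 were higher and 13 lower, the median was -0.01 and none passed the adjusted threshold. Occludin (Ocln), the first membrane protein described at this junction, was at 1.60 ± 0.31 and 1.75 ± 0.32 and differed by 0.15 (SE 0.22). The scaffold genes Tjp1 and Tjp3, whose proteins tie claudins to actin, differed by -0.01 (SE 0.12) and -0.01 (SE 0.11). The interval of Tjp1 ran from -0.31 to 0.29, and TCEP and vehicle arrays overlapped for both. The adhesion molecule gene F11r differed by -0.04 (SE 0.09), and Marveld2, which encodes tricellulin of the corners where cells meet, by 0.19 (SE 0.13).

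Pard3, a polarity scaffold that places the junction, had the smallest p of the partner list. It was at 1.25, 1.18 and 1.17 in vehicle and at 1.00, 0.88 and 0.82 after TCEP, without overlap, a difference of -0.30 (SE 0.07, unadjusted p = 0.00592, adjusted p = 0.535 with limma). Ybx3, which binds the scaffold of Tjp1, differed by -0.14 (SE 0.06) and the polarity kinase gene Prkci by 0.10 (SE 0.06), both without overlap, and Marveld3 by -0.20 (SE 0.11) with overlap. Of the 4 tested Prkci probes, the dimmest went the other way, at -0.21.

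Among adhesion proteins that stand beside claudins, 6 of 13 tested were higher and 7 lower (median -0.02), and none passed the adjusted threshold. E-cadherin (Cdh1), the adherens junction cadherin of the distal nephron, was at 3.04, 2.91 and 3.00 in vehicle and at 2.68, 2.67 and 2.81 after TCEP. The arrays did not overlap, and the difference was -0.27 (SE 0.07, unadjusted p = 0.0109, adjusted p = 0.535 with limma). Afadin (Afdn), which links nectins to actin, differed by -0.32 (SE 0.09, adjusted p = 0.535 with limma), again without overlap, and its 3 further probes by -0.14, -0.06 and -0.20, all with overlap. N-cadherin (Cdh2), the cadherin of the proximal tubule, and the kidney cadherin Cdh16 differed by 0.15 (SE 0.10) and 0.12 (SE 0.09).

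Of 24 tested claudin regulators 14 were higher and 10 lower (median 0.01), and none passed the adjusted threshold. Ovol1, a transcription factor gene of epithelial identity, was higher on all TCEP arrays on its brightest probe, by 0.32 (SE 0.07, unadjusted p = 0.00328, adjusted p = 0.533 with limma), but a further probe differed by -0.18 (SE 0.13). The protease inhibitor gene Spint1 differed by 0.13 (SE 0.06) without overlap. Lnx1, a ubiquitin ligase that removes claudins from the junction, differed by -0.22 (SE 0.11), and the membrane protease gene Prss8 by 0.17 (SE 0.10), both with overlap.

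**Figure D4:**
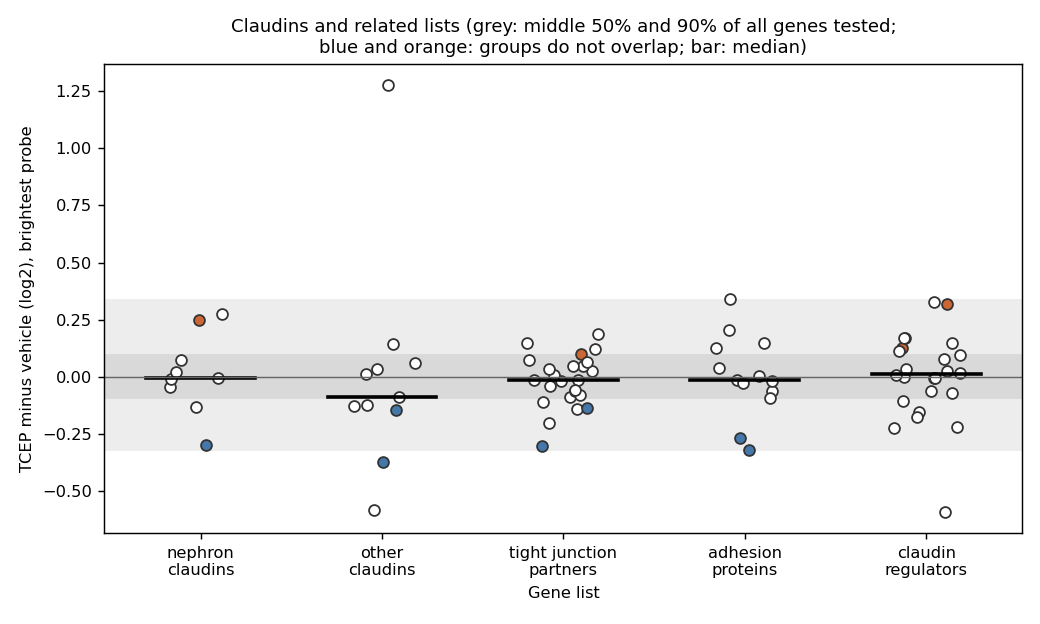
TCEP minus vehicle on the log2 scale (y axis) for each tested gene of 5 lists, with the list median as a bar; grey bands run from the 25th to the 75th and from the 5th to the 95th percentile of all 11804 genes tested, and coloured points are genes whose groups do not overlap. The 5 medians lie between -0.09 and 0.01, and the highest point is Cldn14, which rests on 1 array.

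For each claudin the 3 genes most like it by Pearson r over the 6 arrays were listed, as a description over 6 points that share their arrays. The 27 values lay between 0.972 and 0.998. The closest gene was Mcmbp for Cldn4 (0.995), Rpl36a for Cldn10 (0.998), Mzf1 for Cldn16 (0.992) and Rsrp1 for Cldn19 (0.992). It was Mat2a for Cldn3 (0.994), Ddx17 for Cldn8 (0.982), Zfp131 for Cldn7 (0.981) and Mmp17 for Cldn1 (0.989). Cldn2 was closest to the kininogen genes Kng2 (0.997) and Kng1 (0.992), paralogs whose probes may read each other.

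Markers of tissue that may come with a cortex sample were dim or level. Of 8 urothelium and renal pelvis markers 3 were tested, 4 were not well above background in a whole group and 1 is not analysed here, with summed linear levels of 0.27 to 0.42 in vehicle and 0.33 to 0.39 after TCEP. Inner medulla and thin limb markers had a median difference of -0.03, with 2 higher and 4 lower. Podocyte markers were lower in 7 of 7 (median -0.23, summed levels of 30.3 to 38.0 and 28.3 to 37.5) and endothelial markers in 6 of 7 (median -0.07). The podocyte gene Nphs1 differed by -0.32 (SE 0.14) without overlap, and the endothelial genes Cdh5 and Flt1 by -0.12 (SE 0.08) and -0.12 (SE 0.11), with overlap. Macrophage and leukocyte markers were lower in 6 of 6 tested (median -0.11, summed levels of 13.5 to 20.2 and 13.5 to 15.2). The groups overlapped for C1qb at -0.36 (SE 0.20) and Adgre1 at -0.15 (SE 0.13) of this list, for the urothelial genes Upk1a at 0.36 (SE 0.26) and Krt5 at 0.13 (SE 0.13), and for the inner medulla list's Fxyd2 at 0.05 (SE 0.06) and Bdkrb2 at -0.07 (SE 0.10). No gene of these lists passed the adjusted threshold.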

How the data were processed

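Cy3-labelled cRNA from 0.2 ug of total RNA was hybridised per the labels' protocols. The scanner files deposited by the authors come from Feature Extraction (Agilent) version 10.7.1.1 per the file headers (10.7 per the submitters' processing notes), and the deposited processed signal is a background-subtracted, detrended intensity not scaled between arrays. Deposited median spot and background intensities were used for the normexp alternative (offset 50), because mean spot signals are not used here. The deposited value table holds the same intensity over a constant per array, with no centring seen and column medians of 0.104 to 0.107. That constant exceeded the array's 75th percentile by at most 0.15%, so the value table nearly repeats the main scaling.

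Probes were named through unversioned accessions in a RefSeq table (GRCr8, names only): 27460 probes (44.5%) matched 1 gene. 12 probes with outlier marks were left out. A gene was read from its brightest probe, and tested if every array of 1 group or more had that probe well above background. The comparison used the moderated test of limma 3.58.1 under R 4.3.3 (lmFit and eBayes with a term for group, two-sided). Adjustment was Benjamini-Hochberg over all 11804 genes, or over all 41040 probes where further probes are given. The same test was also run on simulated data, built from the gene means of this comparison with 1 common SD. Intervals use 5.93 degrees of freedom in the fit over genes and 6.05 in the fit over probes, and 3 arrays per group limit the precision. Each array is 1 rat. A p-value sets the group difference against the spread between arrays of a group, moderated over all genes or probes tested. That spread holds no difference between slides, because each group lay on 1 slide. Python 3.11.15, pandas 2.3.3 and matplotlib 3.10.9 were used for tables and figures.

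The members and lists were chosen with earlier results of these data known. Named genes are all 9 claudins with every probe, measured other claudins, up to 4 genes of smallest p in each junction list, up to 2 in each cell type list, a fixed set of junction genes (of which Cgn is not analysed here), and the 3 genes most correlated with each claudin. Of these, 2 genes are not reported here. Of the correlated genes, the closest is given for each claudin and 2 for Cldn2, a selection made after the values were seen.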

Additional observations from a re-analysis of the deposited data

How the results depend on the processing

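No claudin passed the adjusted threshold in any of 17 alternatives per gene, where the smallest adjusted p of a claudin was 0.268 (Cldn4 with normexp). Cldn4 and Cldn8 stayed negative and Cldn10 positive throughout, with Cldn4 between -0.36 and -0.22, Cldn8 between -0.20 and -0.05 and Cldn10 between 0.15 and 0.33. Changes of the background filter, the variance trend and the replicate block cannot move a difference, and the deposited value table has nearly the main scaling. These alternatives do not test the signs, nor does the mean over probes for Cldn10, which has 1 probe. Of the 9 nephron claudins, 2 had no overlap in the main values. The count was 1 with unscaled arrays and 1 under spike-in centring (Cldn10 in both), and 2 to 3 with an array left out. The count of all genes past the threshold was 5 with spike-in centring and 0 to 1 when an array was left out (1 without TCEP replicate 3). Genes at an unadjusted p under 0.05 numbered 983, or 427 with spike-in centring and 1568 with normexp.

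Of the 9 claudins, 6 changed sign under some alternative (Cldn1, Cldn2, Cldn3, Cldn7, Cldn16 and Cldn19), Cldn3 from a difference of 0.27, and the cause was not tested. Without scaling, Cldn7 was at 0.034, Cldn19 at 0.035 and the further Cldn2 probe at 0.00341. With spike-in centring, which moved the median of all genes to 0.09, Cldn1 was at 0.034, Cldn7 at 0.070, Cldn19 at 0.071 and the further Cldn2 probe at 0.040. With normexp, the Cldn1 probe A_43_P12641 was at -0.074, the further Cldn2 probe at 0.068 and the Cldn19 probe A_64_P138420 at -0.061. With the mean over probes, Cldn1 was at 0.083 and Cldn19 at 0.020, and with array weights Cldn16 was at -0.067. With 1 array left out, Cldn1 ran from -0.21 to 0.057, Cldn2 from -0.019 to 0.15, Cldn3 from -0.19 to 0.69, Cldn7 from -0.056 to 0.077, Cldn16 from -0.10 to 0.12 and Cldn19 from -0.22 to 0.15. The further probes ran from -0.070 to 0.11 (Cldn1 probe A_43_P12641), -0.12 to 0.012 (Cldn2), -0.088 to 0.15 (Cldn3), -0.077 to 0.20 (Cldn16), -0.23 to 0.17 (Cldn19 probe A_44_P1047578) and -0.23 to 0.24 (Cldn19 probe A_64_P138420).

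No label ties arrays with the same replicate number. Their deviations from the group means correlated at -0.15, -0.10 and 0.23, beside -0.33 to 0.37 for arrays with different numbers. With 3 arrays per group, these values cannot decide whether arrays with the same number share more than the number. With the replicate block, Cldn4 had an adjusted p of 0.690 at the same difference of -0.30, and 0 genes passed.

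Slide and scan time coincide with the groups, and 3 arrays per group leave an interval of about 1.5-fold for the brightest probe of most claudins.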
